A study of Mus musculus with 3 samples.

Results

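Stressed cardiomyocyte nuclei were defined in mouse heart as ventricle-like muscle nuclei that held UMIs of genes normally abundant in fetal heart muscle. A UMI, or unique molecular identifier, counts 1 captured RNA molecule. A nucleus was a member when it had at least 300 detected genes, at most 10% mitochondrial UMIs and at least 5% of its UMIs from Ttn, Ryr2, Myh6 and Mhrt. It also had to hold at least 2 UMIs over Nppa, Nppb, Myh7 and Acta1, at most 1 UMI over the atrial genes Myl7, Myl4 and Sln, and at most 1 UMI over Pecam1, Cdh5, Pdgfra, Dcn, Csf1r and Ptprc, which mark vessel, fibroblast and immune cells. The rule found 672 nuclei among 4592 cardiomyocyte nuclei, which had passed all the other limits, and among 20733 nuclei kept in all. The 3920 cardiomyocyte nuclei with 0 or 1 fetal UMI are called other cardiomyocyte nuclei.

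The nuclei came from 3 libraries of single-nucleus RNA sequencing, 1 for each group, made from hearts collected 2 weeks after surgery. MI-DAPA was myocardial infarction with dapagliflozin, an inhibitor of the sodium-glucose cotransporter SGLT2, MI-NS was infarction with NS, and Sham-NS was sham surgery with NS. The libraries held 6354, 7725 and 9744 barcodes with 8871086, 10113430 and 13873275 UMIs in MI-DAPA, MI-NS and Sham-NS. The labels do not spell out NS, and strain, age, sex, genotype, dose and the number of hearts per library are not given in the sources used here. With 1 library a group there was no test between groups, and differences between libraries cannot be told apart from differences between animals, tissue pieces or preparations.

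The adult mouse ventricle runs mainly on the fast alpha myosin heavy chain, encoded by Myh6, and on fat oxidation. Under wall stress or near an infarct, heart muscle cells take up part of the fetal programme again: they transcribe the natriuretic peptides ANP (Nppa) and BNP (Nppb), the slow beta myosin heavy chain (Myh7) and skeletal alpha actin (Acta1). Nppa and Nppb are widely used markers of the muscle next to an infarct, and factors of the TEAD and SRF families are known to act on several of these promoters.

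The upstream sequences of the 4 genes and of Ankrd1, which was at least 2-fold higher in stressed nuclei of all 3 libraries, are shown because the members are defined by the transcripts that start there. Each line gives the 250 bases before a RefSeq start on GRCm38.p6, read 5′ to 3′ in the direction of the gene. Capitals mark matches to the MCAT motif bound by TEAD factors (CATTCC, or GGAATG on the other strand) and to the CArG box bound by SRF.
Nppa (chr4:148000472-148000721, plus strand): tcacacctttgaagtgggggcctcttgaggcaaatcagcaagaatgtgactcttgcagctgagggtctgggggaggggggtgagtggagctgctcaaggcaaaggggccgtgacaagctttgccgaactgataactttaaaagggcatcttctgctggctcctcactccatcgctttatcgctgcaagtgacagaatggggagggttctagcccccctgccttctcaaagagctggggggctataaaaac
Nppb (chr4:147985650-147985899, plus strand): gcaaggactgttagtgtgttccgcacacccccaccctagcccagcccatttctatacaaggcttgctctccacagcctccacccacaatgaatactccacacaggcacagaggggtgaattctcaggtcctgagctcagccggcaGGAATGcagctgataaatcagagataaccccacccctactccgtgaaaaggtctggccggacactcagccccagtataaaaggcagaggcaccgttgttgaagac
Myh7 (chr14:54994627-54994876, minus strand): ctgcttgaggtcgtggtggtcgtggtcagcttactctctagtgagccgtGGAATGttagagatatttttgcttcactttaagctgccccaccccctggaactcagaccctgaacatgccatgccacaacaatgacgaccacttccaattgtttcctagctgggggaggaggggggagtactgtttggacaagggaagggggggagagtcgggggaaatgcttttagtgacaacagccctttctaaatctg
Acta1 (chr8:123894776-123895025, minus strand): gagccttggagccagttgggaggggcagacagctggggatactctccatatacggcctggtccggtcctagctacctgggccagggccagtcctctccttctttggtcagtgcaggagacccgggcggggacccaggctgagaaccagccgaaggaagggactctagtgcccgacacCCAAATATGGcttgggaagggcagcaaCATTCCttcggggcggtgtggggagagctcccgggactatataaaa
Ankrd1 (chr19:36119845-36120094, minus strand): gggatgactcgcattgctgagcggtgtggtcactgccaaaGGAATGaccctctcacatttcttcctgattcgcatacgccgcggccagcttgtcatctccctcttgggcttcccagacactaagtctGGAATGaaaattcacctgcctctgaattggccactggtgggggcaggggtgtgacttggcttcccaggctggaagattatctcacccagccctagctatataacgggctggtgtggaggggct

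The MCAT letters were found in the windows of Nppb, Myh7 and Acta1 but not in that of Nppa, and they occurred at 2 places in the window of Ankrd1. The matches began 105 bases before the start in Nppb, 201 in Myh7, 46 in Acta1, and 210 and 123 in Ankrd1. RefSeq gives Myh7 another start as well, and its window (chr14:54994550-54994799, minus strand), which is not shown, held no match to either motif. A match to the strict CArG pattern, CCWWWWWWGG with W for A or T, was found in Acta1 alone of the 5 windows. It began 73 bases before the start. CArG-like sequences with other bases were not searched for. Among the 32851 RefSeq promoter windows of this length, 12.6% held the MCAT letters and 1.47% a CArG box. The upstream window of Myh6, the adult counterpart of Myh7, also held the MCAT letters. A match describes the sequence and is not evidence of binding.

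Stressed nuclei made up a larger part of the cardiomyocyte nuclei in the infarct libraries. They were 217 of 1635 cardiomyocyte nuclei in MI-DAPA, or 13.3% (11.7 to 15, 95% Clopper-Pearson interval). In MI-NS they were 365 of 1059, or 34.5% (31.6 to 37.4), and in Sham-NS 90 of 1898, or 4.74% (3.83 to 5.80). All intervals given cover counting error only, not the spread between animals. The MI-NS share was 7.27 times the Sham-NS share, and the MI-DAPA share was 0.385 times the MI-NS share. These shares follow from the fetal genes themselves and are given as a description.

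Depth moved with the rule, since a deeper nucleus reaches 2 fetal UMIs more easily. The median stressed nucleus had 3474 UMIs in MI-DAPA, 2578 in MI-NS and 3262 in Sham-NS, against 2186, 1769.5 and 2268 for other cardiomyocyte nuclei of the same libraries. After each nucleus with at least 1000 UMIs was thinned to 1000, the shares were 7.27% in MI-DAPA, 21.5% in MI-NS and 2.02% in Sham-NS, out of 1514, 1000 and 1836 nuclei that met the cardiomyocyte limits after thinning. The order of the libraries was the same. The thinning left out 167 shallower cardiomyocyte nuclei in MI-DAPA, 117 in MI-NS and 146 in Sham-NS. The muscle, atrial and other-cell limits were read from the thinned counts, so some nuclei that failed them at full depth were let in.

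Fetal UMIs were also counted in non-myocyte nuclei, which should lack these transcripts. These nuclei were chosen for a low share of UMIs from Ttn, Ryr2, Myh6 and Mhrt. That choice can leave out nuclei with much free muscle RNA, so their counts do not measure free RNA. The part of free RNA in the cardiomyocyte shares was not tested. In non-myocyte nuclei, at least 2 fetal UMIs were seen in 5 of 823 in MI-DAPA (0.608%), in 88 of 1886 in MI-NS (4.67%) and in 3 of 1790 in Sham-NS (0.168%). Their median depths were 763, 940.0 and 819 UMIs in the same order. In each library the share in cardiomyocyte nuclei was therefore above that in non-myocyte nuclei, both at full depth and after thinning, where the non-myocyte shares were 0.595%, 2.94% and 0.229%.

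**Figure D1:**
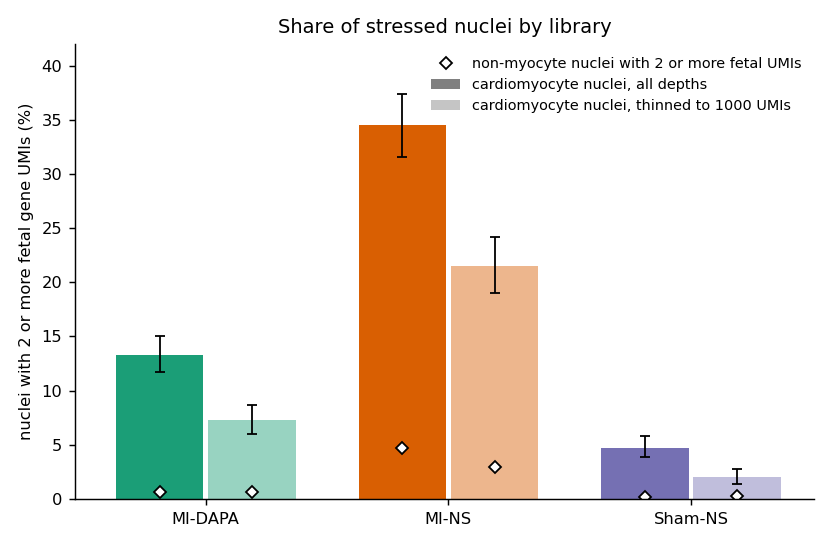
Share of nuclei with at least 2 fetal gene UMIs (%) in MI-DAPA, MI-NS and Sham-NS. Bars are cardiomyocyte nuclei at all depths (dark) and thinned to 1000 UMIs (pale) with 95% Clopper-Pearson intervals, and diamonds are non-myocyte nuclei; MI-NS is highest at 34.5% and 21.5%, above MI-DAPA at 13.3% and 7.27% and Sham-NS at 4.74% and 2.02%.

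Among all kept nuclei, 264 in MI-DAPA, 664 in MI-NS and 111 in Sham-NS had at least 2 fetal UMIs. Of these, 235, 403 and 101 met the limit of 5% muscle UMIs, and what the rest were was not tested. The limits on other cells then removed few nuclei. The limit on other-cell markers removed 16 nuclei that met the fetal and muscle rules in MI-DAPA, 37 in MI-NS and 11 in Sham-NS, and the atrial limit removed 2, 1 and 0. No doublet caller was run, and 196 of the 217 MI-DAPA members, 308 of the 365 MI-NS members and 77 of the 90 Sham-NS members held no UMI at all of the 6 other-cell markers. Without the deepest 5% of cardiomyocyte nuclei the shares were 11.9% in MI-DAPA, 32.6% in MI-NS and 4.05% in Sham-NS. The libraries shared 13 to 20 cell barcodes in each pair, and no stressed nucleus had a barcode found as stressed in another library.

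The cardiomyocyte label held against genes that the rule did not use. Tnnt2, which encodes cardiac troponin T, reached 16715 CPM in stressed nuclei of MI-DAPA, 17466 in MI-NS and 20189 in Sham-NS. CPM is the summed UMIs of a class per 1000000 UMIs, with the 4 fetal genes left out of the total. Other cardiomyocyte nuclei had 18137, 19447 and 21777 CPM, and non-myocyte nuclei 776, 418 and 953 CPM. Mybpc3, cardiac myosin-binding protein C, stood at 7708, 7968 and 5069 CPM in stressed nuclei against 6442, 6665 and 4263 CPM in other cardiomyocyte nuclei. Bmp10, an atrial gene, had no UMI in any of these classes, and the pacemaker channel gene Hcn4 had 1 UMI in MI-DAPA, 1 in MI-NS and 2 in Sham-NS stressed nuclei. The 12 genes of the atrial list that the rule did not use summed to 383 CPM in stressed against 321 CPM in other cardiomyocyte nuclei of MI-DAPA, 399.7 against 352 CPM in MI-NS and 284 against 325 CPM in Sham-NS. Non-myocyte nuclei had 278, 405 and 201 CPM of it. Cntn2, a marker of Purkinje fibres, was at 14.0 against 4.31 CPM in MI-DAPA, 12.3 against 27.0 CPM in MI-NS and 37.7 against 11.2 CPM in Sham-NS, from 12, 13 and 13 UMIs in stressed nuclei. The 13 genes of the conduction list summed to 145 against 178 CPM in MI-DAPA and 129 against 211 CPM in MI-NS. In Sham-NS they summed to 165 against 157 CPM. The atrial sum, the conduction sum and Cntn2 each differed in direction between libraries. Whether some members were atrial or conduction nuclei was not tested.

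The word stressed fitted the libraries unequally. Median fetal UMIs per member were 4 in MI-DAPA (at most 91), 5 in MI-NS (at most 105) and 2.50 in Sham-NS (at most 67). Members just inside the threshold, with exactly 2 fetal UMIs, were 70 nuclei in MI-DAPA, 93 in MI-NS and 45 of the 90 in Sham-NS. Just outside it, 304, 202 and 211 nuclei had 1 fetal UMI. At the other end, 57 nuclei in MI-DAPA (26.3%), 114 in MI-NS (31.2%) and 10 in Sham-NS (11.1%) had 10 or more, and these held 72.7%, 75.1% and 44.9% of all fetal UMIs of the members.

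The 4 fetal genes chose the members, so their levels are a description. Nppa, the ANP precursor, was at 643 CPM in stressed nuclei of MI-DAPA, 807 in MI-NS and 255 in Sham-NS. It was detected in 47.5% of the MI-DAPA members, 55.6% of the MI-NS members and 22.2% of the Sham-NS members. Nppb, the BNP precursor, was at 323 CPM in MI-DAPA, 742 in MI-NS and 188 in Sham-NS, and was the gene most often detected in MI-NS, in 76.7% of members. Both peptides had their highest level in MI-NS and their lowest in Sham-NS.

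Myh7, the slow myosin gene, was at 1287 CPM in MI-DAPA, 1663 in MI-NS and 452 in Sham-NS. Among members alone, Acta1 had its highest level in Sham-NS, with 160.1 CPM in MI-DAPA, 353 in MI-NS and 441 in Sham-NS. It was detected in 29.5% of members in MI-DAPA, 35.9% in MI-NS and 55.6% in Sham-NS. Fetal UMIs of Acta1 only were held by 23 of the Sham-NS members, 25.6%, against 11 of the MI-DAPA members and 11 of the MI-NS members. These values hold within the members, whose share of cardiomyocyte nuclei differed between libraries. Members with Acta1 UMIs were 64 of the 1635 cardiomyocyte nuclei in MI-DAPA, 131 of 1059 in MI-NS and 50 of 1898 in Sham-NS.

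Fetal UMIs were also found outside the members. In MI-NS, non-myocyte nuclei had 123 CPM of Nppa and 43.1 CPM of Nppb, while other cardiomyocyte nuclei had 37.0 and 64.7 CPM. The levels of these classes cannot be compared, because the rule caps other cardiomyocyte nuclei at 1 fetal UMI and sets no such cap on non-myocyte nuclei, where 1 nucleus held 16 Nppa UMIs. The source of the Nppa UMIs in non-myocyte nuclei was not tested. In Sham-NS the non-myocyte levels of all 4 genes were between 1.66 CPM for Nppa and 5.54 CPM for Acta1.

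**Figure D2:**
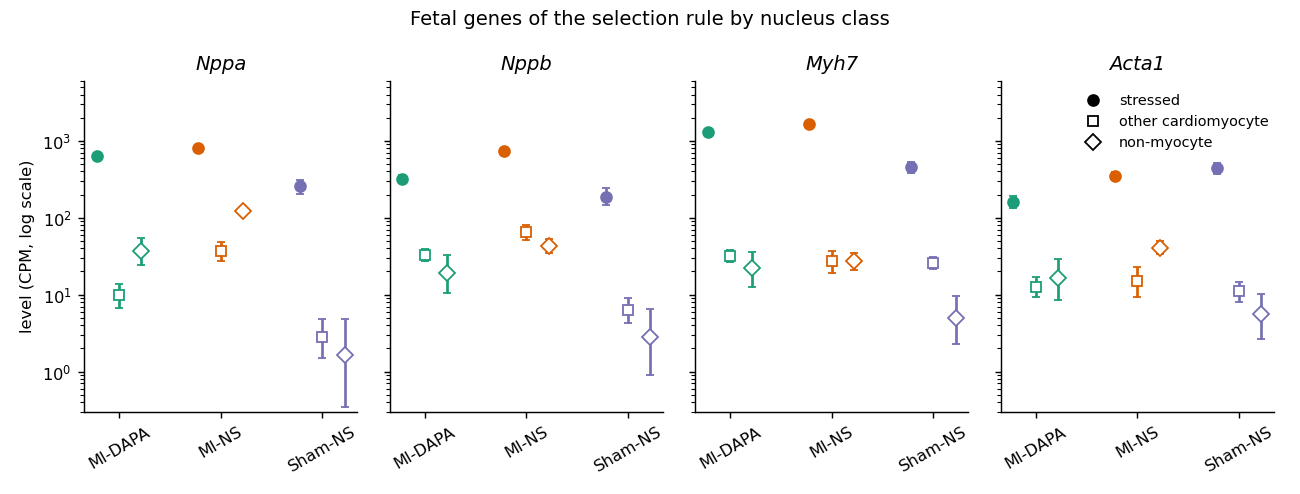
Levels of Nppa, Nppb, Myh7 and Acta1 (CPM, log axis) in stressed, other cardiomyocyte and non-myocyte nuclei of MI-DAPA, MI-NS and Sham-NS, with exact 95% Poisson intervals. Each gene is highest in the stressed nuclei of its library, by the rule, and Nppa in non-myocyte nuclei is highest in MI-NS at 123 CPM.

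The fetal genes overlapped only in part within a nucleus. UMIs of 1 of the 4 genes alone made up 35.9% of members in MI-DAPA, 26.8% in MI-NS and 54.4% in Sham-NS. All 4 genes were found in 9 nuclei of MI-DAPA, 26 of MI-NS and 2 of Sham-NS. Nppa and Nppb, which lie next to each other on chromosome 4, were found together in 30.4% of members in MI-DAPA, 41.6% in MI-NS and 13.3% in Sham-NS. Detection of several genes also depends on depth and on the level of each, and the part of these was not tested.

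Members differed by the fetal gene that led in UMIs, a comparison that also depends on how well each transcript is captured. In MI-NS, 98 nuclei had more UMIs of Myh7 than of any other fetal gene, 97 were led by Nppb, 68 by Nppa and 36 by Acta1. The Myh7-led nuclei had 8084 CPM of Xirp2, against 4915 CPM in Nppa-led, 2628 CPM in Acta1-led and 2386 CPM in Nppb-led nuclei. Xirp2 encodes an actin-binding protein of the intercalated disc and costamere. Their Myh6 level was 13179 CPM, the lowest of the 4, against 23743, 29254 and 27609 CPM in the Nppa-led, Acta1-led and Nppb-led nuclei.

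In MI-DAPA, 60 nuclei were led by Nppa, 59 by Myh7, 41 by Nppb and 24 by Acta1. Xirp2 was at 6710.4 CPM in Myh7-led and 6011 CPM in Nppa-led nuclei there, against 3298 CPM in Nppb-led and 2129 CPM in Acta1-led nuclei. Both infarct libraries thus had Xirp2 highest in the Myh7-led nuclei and second highest in the Nppa-led ones. The groups of leading genes were not matched for their number of fetal UMIs, along which Xirp2 also rose in both infarct libraries. The part of that number in these levels was not tested. In Sham-NS, 35 nuclei were led by Acta1, 19 by Myh7, 12 by Nppa and 7 by Nppb. The order of Xirp2 was another there, at 2764 CPM in Nppa-led, 1779.6 CPM in Nppb-led, 1611 CPM in Acta1-led and 1287 CPM in Myh7-led nuclei. Nuclei with a tie for the lead, 33 in MI-DAPA, 66 in MI-NS and 17 in Sham-NS, had 2212, 3009 and 1601 CPM of Xirp2.

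Myh7 UMIs remained a minority beside those of Myh6. Myh7 was 3.65% of the UMIs of Myh6 and Myh7 together in stressed nuclei of MI-DAPA, 6.80% in MI-NS and 0.972% in Sham-NS. Myh7 UMIs outnumbered Myh6 UMIs in 11 members of MI-DAPA, 35 of MI-NS and none of the 90 of Sham-NS. Myh6 was at 33968 CPM in stressed against 41220.3 CPM in other cardiomyocyte nuclei of MI-DAPA, at 22807 against 32289 CPM in MI-NS, and at 46068 against 48001 CPM in Sham-NS. Mhrt, a long noncoding RNA of the same locus, was at 4916 against 7129 CPM in MI-DAPA, 3573 against 6243 CPM in MI-NS and 7511 against 8922 CPM in Sham-NS. Mhrt overlaps Myh7 on the other strand, and whether the counting used strand is not given in the sources used here. The calcium release channel gene Ryr2 was also lower in stressed nuclei of each library, at 5198 against 7311 CPM, 3874 against 5426 CPM and 6038 against 6978 CPM. Titin (Ttn) was slightly higher in each, at 148900.3 against 142298 CPM in MI-DAPA, 108956 against 103124 CPM in MI-NS and 113177 against 99283 CPM in Sham-NS. Myh6, Mhrt, Ryr2 and Ttn are also genes of the rule, which bounds their sum.

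Beyond the rule, stressed nuclei were compared with other cardiomyocyte nuclei of the same library by the log2 ratio of CPM, for genes with at least 50 UMIs over both classes. In MI-DAPA, 1.29% of 7077 such genes were at least 2-fold higher and 1.96% at least 2-fold lower in stressed nuclei. In MI-NS the figures were 1.27% higher and 1.13% lower of 5922 genes. In Sham-NS they were 2.35% higher and 4.47% lower of 7488 genes, from only 90 stressed nuclei with 345300 UMIs in all, so that counting error alone spreads these ratios more. The median ratio over all genes was -0.03 in MI-DAPA, -0.03 in MI-NS and -0.00 in Sham-NS.

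Of the 5821 genes measurable in both infarct libraries, 30 were at least 2-fold higher in both and 9 at least 2-fold lower in both. The contrast is the one that chose the nuclei, and the genes are given as a description of what else these nuclei held.

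Ankrd1 and Xirp2 had the most UMIs among the higher genes. Ankrd1 encodes a titin-associated ankyrin repeat protein that responds to stretch. It had 4074 CPM in stressed nuclei of MI-DAPA against 1287 CPM in other cardiomyocyte nuclei, a log2 ratio of 1.66 (1.60 to 1.73, exact conditional binomial interval). In MI-NS it had 3019 against 819.7 CPM (log2 ratio 1.88, 1.78 to 1.98), and in Sham-NS 423 against 90.3 CPM (2.23, 1.95 to 2.50). Ankrd1 was thus higher in stressed nuclei of all 3 libraries, though its Sham-NS level in stressed nuclei was below that of other cardiomyocyte nuclei of MI-DAPA and MI-NS.

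Xirp2 differed between the libraries. Stressed against other cardiomyocyte nuclei had 4736 against 1549 CPM in MI-DAPA (log2 ratio 1.61, 1.55 to 1.67) and 4649 against 1085 CPM in MI-NS (2.10, 2.02 to 2.18). In Sham-NS the levels were 1699 and 1363 CPM (0.32, 0.19 to 0.44). The Sham-NS interval did not reach those of the infarct libraries.

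Signalling genes at lower level followed. Rcan1, a calcineurin regulator that is itself induced by calcineurin signalling, had 88.8 against 13.8 CPM in MI-DAPA (log2 ratio 2.68) and 145 against 24.2 CPM in MI-NS (2.56). In Sham-NS its 8 UMIs in stressed and 19 in other cardiomyocyte nuclei were too few to be measurable by the limit of 50. Ppm1e, a protein phosphatase that acts on calcium/calmodulin-dependent kinases, had log2 ratios of 2.50 in MI-DAPA, 2.66 in MI-NS and 2.49 in Sham-NS. Its level in stressed nuclei was 178 CPM in MI-DAPA, 227 CPM in MI-NS and 43.5 CPM in Sham-NS.

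The receptor gene Lrp8, an apolipoprotein E and reelin receptor, had log2 ratios of 2.23 in MI-DAPA and 2.46 in MI-NS, with 1 UMI in stressed nuclei of Sham-NS. Mgat5b, a glycosyltransferase gene, had 2.70 and 1.90 in MI-DAPA and MI-NS, and the noncoding Hectd2os 1.81 and 1.65. Rgs11, a regulator of G protein signalling, had 2.34 and 1.55, the GABA-B receptor subunit gene Kctd16 2.08 and 1.31, and the uridine-cytidine kinase gene Uck2 1.81 and 1.26. The scaffold gene Cnksr1 had 1.35 in MI-DAPA, 1.49 in MI-NS and 0.54 in Sham-NS. The organic cation transporter gene Slc22a4 had 1.27 in MI-DAPA, 1.63 in MI-NS and 0.11 in Sham-NS. These genes rested on 26 to 85 UMIs in the stressed nuclei of each infarct library.

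The lower genes included Ucp3, a mitochondrial carrier tied to fat oxidation. It had 66.6 CPM in stressed against 136 CPM in other cardiomyocyte nuclei of MI-DAPA (log2 ratio -1.02), 88.8 against 203 CPM in MI-NS (-1.19) and 29.0 against 76.5 CPM in Sham-NS (-1.33). Phkg1, the muscle catalytic subunit of phosphorylase kinase, which turns on glycogen breakdown, had 42.1 against 126 CPM in MI-DAPA (-1.57) and 64.3 against 152 CPM in MI-NS (-1.23). In Sham-NS it had 174 against 167 CPM (0.07, -0.35 to 0.44), an interval apart from those of both infarct libraries.

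Of the 9 genes at least 2-fold lower in both infarct libraries 6 met the naming rule, and the others of these 6 were the ring finger gene Pdzrn4 (-2.24 in MI-DAPA and -1.41 in MI-NS), the DNA repair gene Apex2 (-1.05 and -1.32), the collagen-modifying P3h4 (-1.03 and -1.47) and the metalloproteinase gene Adamts7 (-1.03 and -1.44). In Sham-NS, Adamts7 was at -0.87 and Apex2 at -1.02, but Apex2 rested on 7 UMIs in stressed nuclei of Sham-NS and was at 0.03 after thinning.

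**Figure D3:**
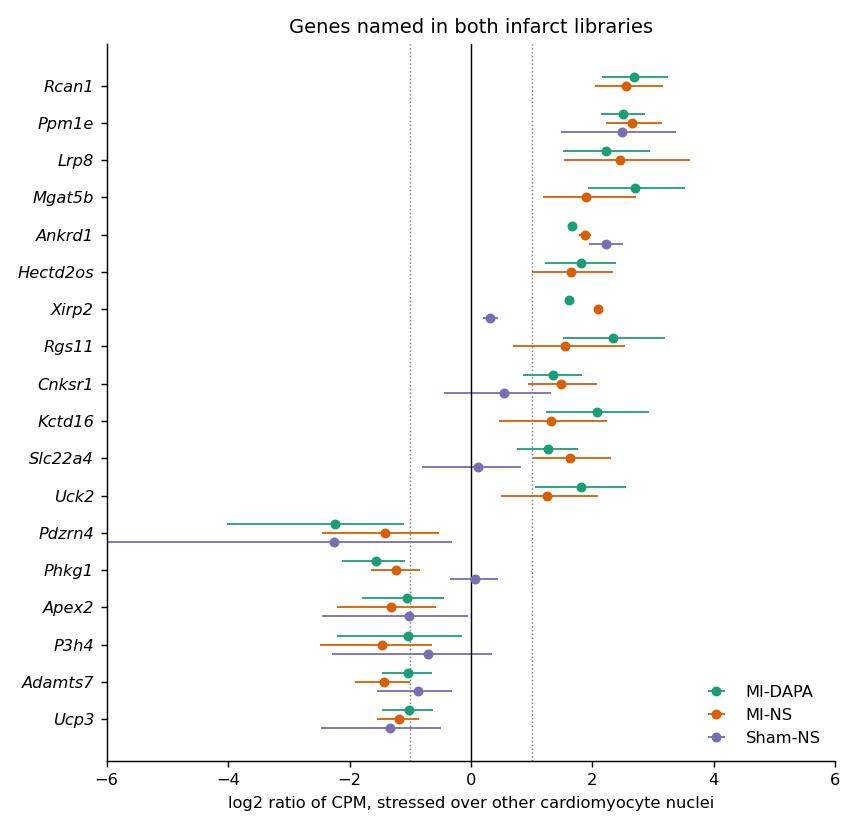
Log2 ratio of CPM in stressed over other cardiomyocyte nuclei for the genes named in both infarct libraries, with exact conditional binomial 95% intervals; dotted lines mark 2-fold, and genes under 50 UMIs in a library are not drawn, and the Sham-NS interval of Pdzrn4 runs past the axis. Xirp2 (0.32) and Phkg1 (0.07) lie near 0 in Sham-NS, while Ankrd1 (2.23) and Ppm1e (2.49) do not.

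The same genes were then read along the number of fetal UMIs in a nucleus, in 5 classes from 0 to 10 or more. Ankrd1 stood at 1168, 1642, 2155, 4728 and 6346 CPM in MI-DAPA for 0, 1, 2 to 3, 4 to 9 and 10 or more fetal UMIs. In MI-NS it stood at 716, 1022, 1647, 3074 and 4298 CPM, and in Sham-NS at 83.2, 134, 229.5, 822 and 927 CPM. The order held in each library, and at each class the MI-DAPA level was above the MI-NS level.

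Xirp2 stood at 1497, 1704, 2194, 4664 and 8472 CPM in MI-DAPA and at 1040, 1173, 1569, 3475 and 8527 CPM in MI-NS. In Sham-NS it stood at 1358, 1391, 1515, 2160.2 and 2062 CPM. In both infarct libraries the step between 2 to 3 and 4 to 9 fetal UMIs was larger than the steps before it.

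Rcan1 and Ppm1e were concentrated in the top classes as well. Rcan1 was at 154 CPM with 10 or more fetal UMIs in MI-DAPA against 14.2 CPM with none, and at 259 against 21.5 CPM in MI-NS. Ppm1e was at 357 against 24.9 CPM in MI-DAPA and at 404 against 34.5 CPM in MI-NS.

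The adult myosin locus was lower along the same classes in the infarct libraries. Myh6 was at 24561 CPM with 10 or more fetal UMIs in MI-DAPA against 41379 CPM with none, at 15434 against 32862 CPM in MI-NS, and at 42072 against 48027 CPM in Sham-NS. Mhrt was at 2689.7 against 7219 CPM in MI-DAPA, 1975 against 6474 CPM in MI-NS and 5189.5 against 8923 CPM in Sham-NS. Ucp3 was at 33.9 against 140.5 CPM in MI-DAPA and 36.2 against 226 CPM in MI-NS. Phkg1 was at 18.8 against 130.5 CPM in MI-DAPA and 31.1 against 161 CPM in MI-NS.

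Titin did not move this way: it was at 157359 against 140557 CPM in MI-DAPA, 115300.3 against 100843 CPM in MI-NS and 104717 against 97960.3 CPM in Sham-NS. Median depth moved with the classes, at 4252 UMIs with 10 or more fetal UMIs against 2084 with none in MI-DAPA, 3002 against 1706 in MI-NS and 3768 against 2215 in Sham-NS. With the other cardiomyocyte nuclei weighted over 5 depth bins, the ratios of Ankrd1 and Xirp2 were still past 2-fold in both infarct libraries.

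**Figure D4:**
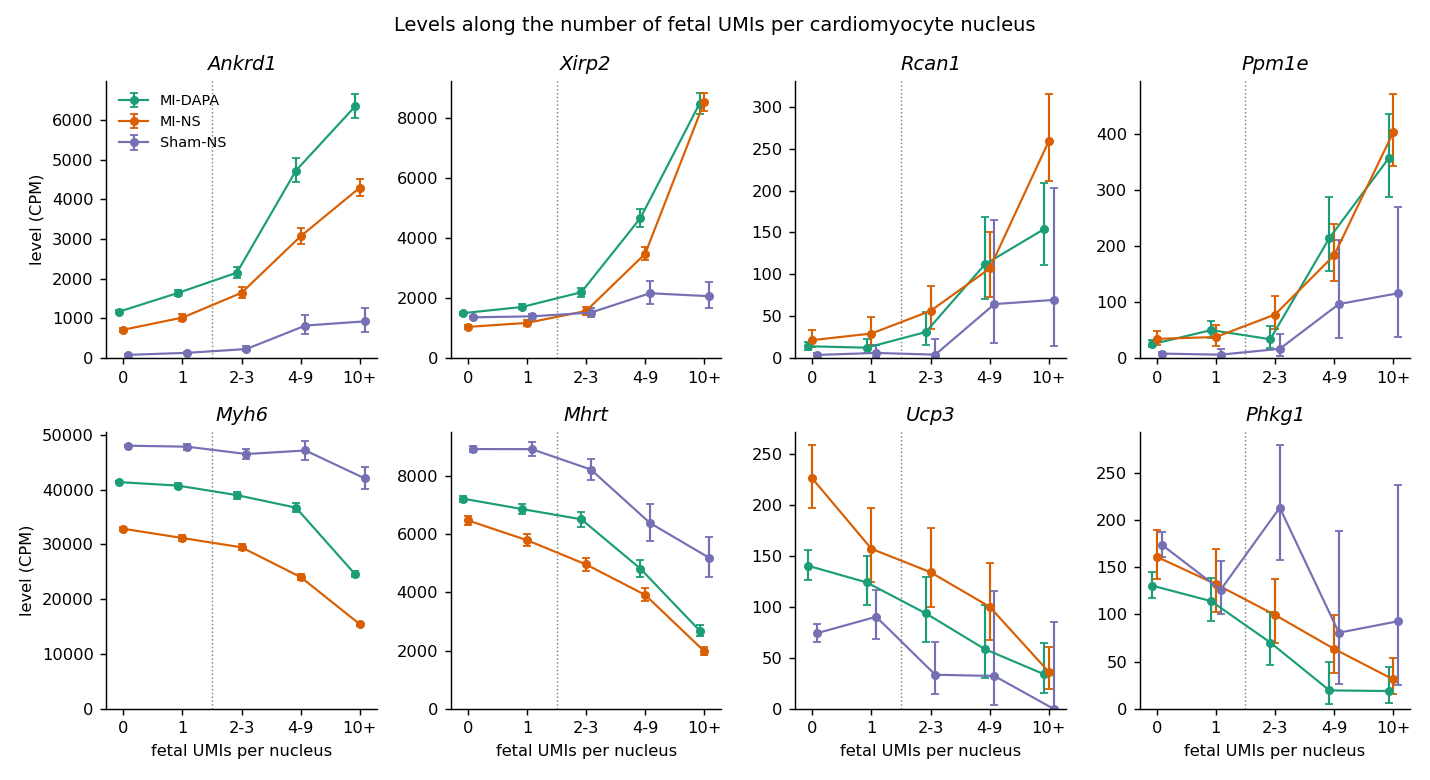
Levels (CPM) of 8 genes in cardiomyocyte nuclei by their number of fetal UMIs, in MI-DAPA, MI-NS and Sham-NS, with exact 95% Poisson intervals; nuclei right of the dotted line are the stressed nuclei. Ankrd1 and Xirp2 are highest and Myh6, Mhrt, Ucp3 and Phkg1 lowest at 10 or more fetal UMIs in both infarct libraries, where Xirp2 reaches 8472 CPM in MI-DAPA and 8527 CPM in MI-NS.

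Ranked over the 15 sums of class and library, the genes most like the summed fetal level were Cspg4 (Spearman's rho 0.939), Cnksr1 (0.900), Nuak1, Fbxo40 and Clic5 (0.896 each), Pcbp4 (0.889), Haus8 (0.882) and Rcan1 (0.878), out of 1872 genes ranked. The sums share libraries and a trend in depth, and the values are a description. Cspg4, a proteoglycan gene known best from pericytes, was at 135 CPM with 10 or more fetal UMIs in MI-DAPA, 181 CPM in MI-NS and 116 CPM in Sham-NS, against 46.4, 44.1 and 41.3 CPM with none. Non-myocyte nuclei had 59.4, 82.9 and 55.9 CPM of it.

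Gene lists gave the wider programme, as the number of measurable members above or below 0 and the median log2 ratio. The stretch and Z-disc list had 19 of 23 members higher in MI-DAPA (median 0.53), 21 of 23 in MI-NS (0.64) and 19 of 23 in Sham-NS (0.40). At least 2-fold higher were 5, 6 and 4 of them. Enah, an actin assembly gene, was at 1.11 in MI-DAPA and 1.23 in MI-NS, and the LIM-domain gene Fhl1 at 2.22 and 1.16. Flnc (filamin C) was at 0.69 and 0.71, Des (desmin) at 0.53 and 0.97, and Fhl2 was lower, at -0.23 and -0.48. Among genes of lists, those named for the size of their ratio were chosen after the values were seen.

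The list of stress-induced and border-zone genes had 10 of 13 members higher in MI-DAPA (median 0.96), 10 of 13 in MI-NS (0.81) and 8 of 11 in Sham-NS (0.49). At least 2-fold higher were 6, 6 and 0 of them. Tgfb2, a growth factor, was at 2.24 in MI-DAPA and 1.58 in MI-NS, and the TWEAK receptor Tnfrsf12a at 1.25 and 1.51. The chaperone clusterin (Clu) was at 1.16 and 1.04, and Ccn2, a matricellular gene, at 1.26 and 1.01. In contrast, the fetal and smooth muscle contractile list had a median of 0.09 in MI-DAPA, 0.48 in MI-NS and -0.09 in Sham-NS, from 7, 6 and 7 measurable members of 17.

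Fatty acid uptake and oxidation genes were lower by small amounts. Of the measurable members, 28 of 33 were lower in MI-DAPA (median -0.31), 30 of 32 in MI-NS (-0.36) and 21 of 33 in Sham-NS (-0.09). Ucp3 was the only member past 2-fold in each library. Acadm, medium-chain acyl-CoA dehydrogenase, was at 309 CPM in stressed against 407 CPM in other cardiomyocyte nuclei of MI-DAPA (-0.40), 383 against 641 CPM in MI-NS (-0.74) and 313 against 362 CPM in Sham-NS (-0.20). Hadha, of the mitochondrial trifunctional protein, was at -0.45 in MI-DAPA and -0.59 in MI-NS, and Acaa2, the last step of the cycle, at -0.69 and -0.67. Cpt1b, the carnitine entry enzyme, was closer to 0, at -0.07 and -0.14.

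Glycolysis genes had medians of -0.08 in MI-DAPA, -0.10 in MI-NS and -0.04 in Sham-NS. Pfkp, the platelet form of phosphofructokinase, was its only member past 2-fold higher in the infarct libraries, at 1.24 in MI-DAPA and 1.16 in MI-NS, while the muscle form Pfkm was at -0.15 and -0.37. Nuclear genes of oxidative phosphorylation had medians of -0.05, -0.10 and 0.06 in MI-DAPA, MI-NS and Sham-NS. Mitochondrially encoded genes had -0.03, -0.09 and -0.05.

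Ion channel genes were mostly lower. Potassium and sodium channel genes were lower for 11 of 17 members in MI-DAPA (median -0.33), 9 of 11 in MI-NS (-0.28, but 0.01 after thinning) and 10 of 15 in Sham-NS (-0.11). Kcnip2, which sets the transient outward current, was at -0.45 in MI-DAPA and -0.70 in MI-NS. The calcium handling list had medians of -0.08, -0.04 and -0.12, with the calcium pump gene Atp2a2 at -0.45, -0.43 and -0.17. The adult sarcomere list had 0.02, -0.06 and -0.01, and the intercalated disc list the same medians in the same order.

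Other stress and signalling lists had smaller medians than the border-zone genes. Unfolded protein and integrated stress genes had medians of -0.06 in MI-DAPA, 0.18 in MI-NS and 0.33 in Sham-NS, and immediate early and heat shock genes -0.12, 0.19 and 0.42. Ketone and branched-chain genes had -0.02, -0.24 and -0.15, adrenergic and cyclic nucleotide genes -0.11, -0.05 and -0.02, and growth factor genes 0.00, -0.07 and 0.05. Nuclear-retained RNA had medians of -0.11, -0.04 and -0.04, but its summed level was higher in stressed than in other cardiomyocyte nuclei, at 89374 against 77287 CPM in MI-DAPA, 127945 against 112953 CPM in MI-NS and 85147 against 82938 CPM in Sham-NS. Malat1, a nuclear RNA, had log2 ratios of 0.25, 0.22 and 0.11 there. The part of nuclear RNA in the ratios of other genes was not tested.

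Cardiac transcription factor genes leaned lower in the infarct libraries, for 18 of 22 members in MI-DAPA (median -0.11) and 15 of 20 in MI-NS (-0.17), against 12 of 24 in Sham-NS (0.02). Tead1, which encodes a TEAD factor, was at -0.11 in MI-DAPA, 0.19 in MI-NS and 0.07 in Sham-NS. The gene for corin, the protease that activates ANP, was lower in stressed nuclei of each library, at 268 against 325 CPM in MI-DAPA (-0.28), 206 against 274 CPM in MI-NS (-0.41) and 261 against 388 CPM in Sham-NS (-0.57).

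Stressed nuclei of MI-NS were next set against those of Sham-NS, with the same contrast in other cardiomyocyte nuclei beside it. Both contrasts share their libraries. Members with 10 or more fetal UMIs were 26.3% of stressed nuclei in MI-DAPA, 31.2% in MI-NS and 11.1% in Sham-NS. Ratios between the stressed nuclei of 2 libraries were not matched for fetal UMIs. Of 3886 genes measurable in stressed nuclei, 7.85% were at least 2-fold higher and 3.65% at least 2-fold lower in MI-NS, and in other cardiomyocyte nuclei 6.38% and 2.42% of 8275 genes were. Nmrk2, a nicotinamide riboside kinase of NAD synthesis, had 55 UMIs in 35 stressed nuclei of MI-NS and none in Sham-NS. It was 5.97-fold higher against a floor of 3 counts in the Sham-NS class, and its log2 interval began at 2.23. In other cardiomyocyte nuclei it had 15 and 5 UMIs. Gdf15, a stress cytokine gene, had 42 UMIs in 22 stressed nuclei of MI-NS and none in Sham-NS. It was 4.56-fold higher against the same floor, and its log2 interval began at 1.83. Only 2 Gdf15 UMIs were found in the 694 other cardiomyocyte nuclei of MI-NS.

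Other genes of this contrast were higher in both classes of nuclei. Pdk4, the kinase that holds back pyruvate oxidation, was at 128 CPM in MI-NS against 11.6 CPM in Sham-NS in stressed nuclei (log2 ratio 3.29), and had 3.57 in other cardiomyocyte nuclei. The metalloproteinase gene Adam19 had 3.12 and 2.86 in stressed and other nuclei, Ankrd1 2.83 and 3.18, the collagen-tailed subunit of acetylcholinesterase Colq 2.58 and 1.96, Rcan1 2.56 and 2.52, and Phlda1 2.44 and 1.41. Xirp2 had 1.45 in stressed and -0.33 in other cardiomyocyte nuclei, so its direction was opposite in these classes. At 2 to 3 fetal UMIs, however, the Xirp2 levels of MI-NS and Sham-NS given above lay close together.

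The genes with the largest lower ratios in MI-NS were also lower in other cardiomyocyte nuclei. Ces1d, a carboxylesterase gene, was at 9.45 CPM in MI-NS against 403 CPM in Sham-NS in stressed nuclei (-5.35), and had -4.79 in other cardiomyocyte nuclei. Arrdc2 had -2.89 and -2.60, Cpeb3 -2.82 and -2.22, the proline-oxidising Prodh -2.67 and -2.39, Ptgds -2.61 and -2.67, Wnk2 -2.58 and -1.53, and Art3 -2.19 and -2.24 in stressed and other nuclei. Tef, a clock output gene, was at 164 CPM against 841 CPM (-2.35), with -2.04 in other cardiomyocyte nuclei.

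Clock genes moved with these libraries: the circadian list had a median of -0.91 in stressed and -0.44 in other cardiomyocyte nuclei for MI-NS over Sham-NS, with Per3 at -3.01 and -2.55 and Nr1d1 at 1.88 and 2.15. The hour of collection is not given in the sources used here, and the part of the clock in the other ratios was not tested. Mitochondrially encoded genes were lower in MI-NS for 11 of 11 members (median -0.77 in stressed, -0.72 in other cardiomyocyte nuclei). Fibroblast markers, which these nuclei should lack, summed to 231 CPM in stressed nuclei of MI-DAPA, 681 CPM in MI-NS and 66.7 CPM in Sham-NS, with UMIs of 11, 12 and 9 of the 12 markers. In non-myocyte nuclei they summed to 5659, 8620.5 and 2112 CPM. Malat1 took 7.30%, 10.6% and 6.54% of the UMIs of stressed nuclei in MI-DAPA, MI-NS and Sham-NS. Endothelial markers summed to 76.0, 185 and 177 CPM there, pericyte and smooth muscle markers to 188, 274 and 296 CPM, macrophage and immune markers to 37.4, 80.3 and 55.1 CPM, and haemoglobin genes to 12.9, 49.1 and 52.2 CPM. The part of these in the ratios was not tested.

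By lists, the border-zone genes were higher in MI-NS for 10 of 11 members in stressed nuclei (median 1.5, with 9 at least 2-fold), against 9 of 12 in other cardiomyocyte nuclei (0.69). The stretch and Z-disc genes were higher for 20 of 23 (0.52), against 15 of 24 (0.16). Over all measurable genes the medians were 0.02 in stressed and 0.13 in other cardiomyocyte nuclei, and 7.85% of genes were at least 2-fold higher in stressed nuclei. The stretch median of other cardiomyocyte nuclei was thus near that of all genes. Fatty acid genes had a median of 0.11 in stressed and 0.38 in other cardiomyocyte nuclei, with 18 of 30 and 26 of 33 members higher. TMM scaling, which fits a factor from genes of middling ratio, would shift the ratios of other cardiomyocyte nuclei by -0.25 and those of stressed nuclei by -0.06. The stretch median of other cardiomyocyte nuclei would then lie below 0, and the fatty acid medians would stay above it.

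For MI-DAPA over MI-NS, 0.358% of 4744 genes were at least 2-fold higher and 3.39% at least 2-fold lower in stressed nuclei. In other cardiomyocyte nuclei 0.457% of 7663 genes were higher and 4.03% lower. The split depended on the scaling: with TMM factors, which shifted all ratios of stressed nuclei by 0.17 and those of other cardiomyocyte nuclei by 0.25, 52 genes were higher and 95 lower, and the median ratio was 0.09 in place of -0.09. Directions of small ratios in this contrast are therefore relative to the total of UMIs.

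Among genes with at least 50 UMIs that met the naming rule, Nmrk2 had the lowest ratio, with 5 UMIs in MI-DAPA against 55 in MI-NS in stressed nuclei (log2 ratio -3.03, -4.83 to -1.84). In other cardiomyocyte nuclei it had 15 against 15 UMIs (-1.31), under the limit of 50. Gdf15 had 11 against 42 UMIs in stressed nuclei (-1.58, -2.73 to -0.64). Sprr1a, a small proline-rich stress gene of the same list, had 0 UMIs in MI-DAPA against 42 in MI-NS there, again under the limit of 50. It was 11.3-fold lower with a floor of 3 counts in MI-DAPA, but 21 of the 42 lay in 1 nucleus. The small heat shock protein gene Hspb1 had 26.9 against 76.5 CPM (-1.49) in stressed nuclei and 30.4 against 31.3 CPM (-0.05) in other cardiomyocyte nuclei. The relative chaperone Cryab had -1.37 in stressed and -0.60 in other nuclei.

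Ndufa11, a complex I subunit gene, had -1.92 in stressed and -0.61 in other cardiomyocyte nuclei, Card19 -1.56 and -1.06, Aph1a -1.46 and -0.68, and Mapre2 -1.45 and -1.27. The higher genes were led by Mylk4, a myosin light chain kinase gene, at 188 CPM in MI-DAPA against 78.4 CPM in MI-NS in stressed nuclei (1.26) and 1.01 in other cardiomyocyte nuclei. Angpt1, an angiopoietin gene, had 1.25 in stressed and -0.13 in other nuclei, Noc3l 1.26 and 0.09, Akap17b 1.26 and 0.39, and the repair gene Ercc6 1.08 and -0.03. Nckap5 had 1.06 and 0.96, Bcas3 1.04 and 0.28, and Lrba 1.02 and 0.65. Ankrd1 was higher in MI-DAPA in both classes (0.43 and 0.65), and Xirp2 stayed at 0.03 (-0.03 to 0.09) in stressed nuclei.

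Border-zone genes were lower in MI-DAPA for 12 of 13 members in stressed nuclei (median -0.66, with 5 at least 2-fold) and for 14 of 15 in other cardiomyocyte nuclei (-0.71). Over all measurable genes the medians were -0.09 in stressed and -0.16 in other cardiomyocyte nuclei, and 3.39% of genes were at least 2-fold lower in stressed nuclei. Immediate early and heat shock genes were lower for 6 of 7 (-0.86) and 11 of 14 (-0.71). Fatty acid genes were lower for 24 of 30 (-0.31) and 29 of 33 (-0.33). The stretch and Z-disc genes had medians of 0.03 and -0.02, and mitochondrially encoded genes were higher for 11 of 11 (0.45) and 12 of 13 (0.42), though for members with 2 or 3 fetal UMIs alone their median was -0.04. Adding the TMM shifts leaves the border-zone, immediate early and fatty acid medians below 0. In each of these 5 lists the medians of stressed and other cardiomyocyte nuclei lay close together.

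**Figure D5:**
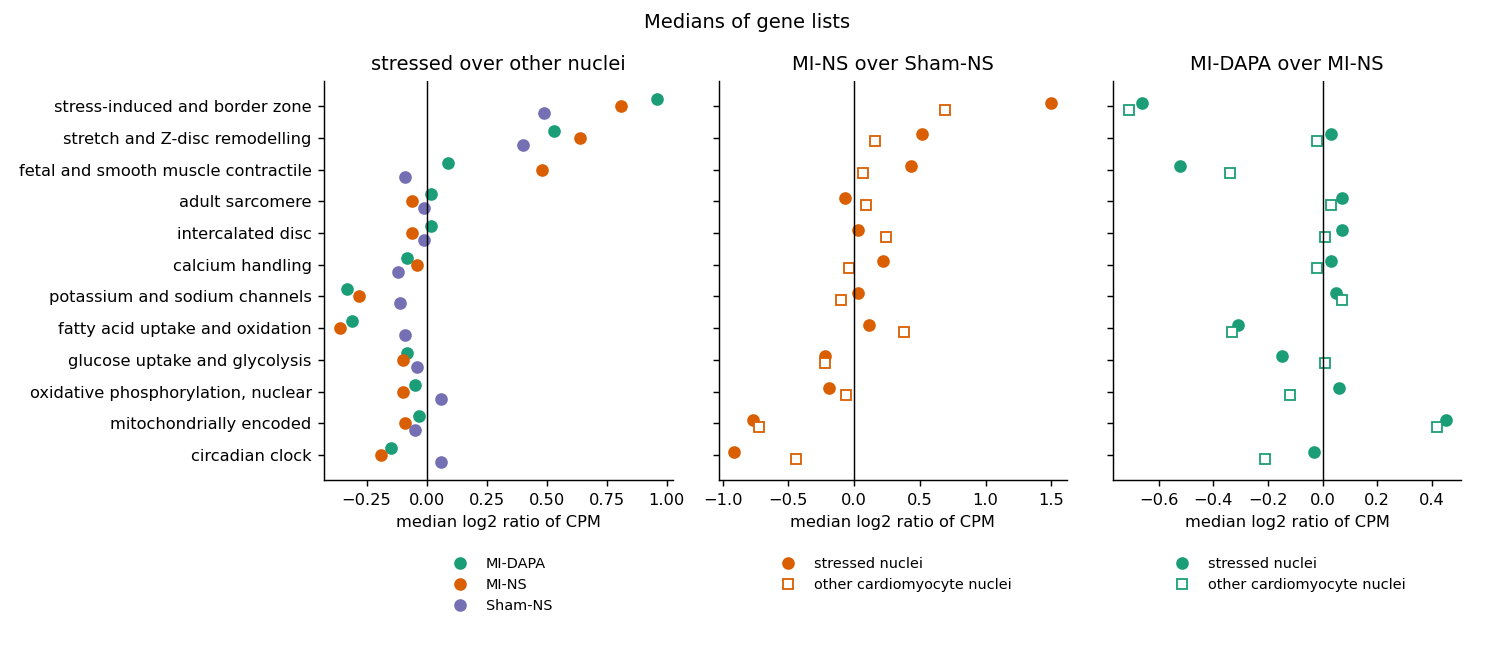
Median log2 ratio of CPM of 12 gene lists: stressed over other cardiomyocyte nuclei in each library (left), MI-NS over Sham-NS (middle) and MI-DAPA over MI-NS (right), with stressed nuclei as circles and other cardiomyocyte nuclei as open squares in the last pair of panels. Border-zone genes have the highest median of the 12 lists in the first 2 panels (0.96 and 0.81 in the infarct libraries, 1.5 in stressed nuclei of MI-NS over Sham-NS).

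Cenpf, a mitosis gene, met the rule for named genes in both contrasts but rested on few nuclei. It had 14 UMIs in MI-DAPA, 55 in MI-NS and 2 in Sham-NS, and 29 of the 55 lay in 2 nuclei. Without those nuclei the log2 ratio was 1.80 (0.10 to 5.22) for MI-NS over Sham-NS and -0.58 (-1.65 to 0.39) for MI-DAPA over MI-NS, against 2.85 and -1.63 with them. The nuclei had 69 and 51 UMIs of the 22 cell cycle genes, 2 and 4 fetal UMIs, and cardiomyocyte shares of 10.7% and 6.31%. Whether they were cycling cardiomyocytes, doublets or cells of another type was not tested.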

How the data were processed

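Single-nucleus libraries from mouse heart were analysed, 1 library for each of 3 groups, with no replicates. The authors deposited raw UMI counts per gene and barcode for 32285 features, made with Cell Ranger 6.0.1 per the file headers. The submitters' processing notes also name mm10 and Seurat. Whether intronic reads or strand entered the counts is not given in the sources used here, and both would change levels in nuclei.

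UMI counts were summed over the nuclei of a class in each library. Levels are CPM, with the 4 fetal genes left out of the total. Before taking log2 ratios of CPM, 0.5 UMI was added to both sums, and the ratios have exact conditional binomial 95% intervals. Genes under 50 UMIs in the pair of classes compared were left out of gene counts and list medians, and the rest were counted from 2-fold up. A few genes under this limit are given in the text with their UMIs. Levels have exact Poisson intervals and shares Clopper-Pearson intervals. A fold against 0 UMIs used a floor of 3 counts over the class. Non-myocyte nuclei had under 1% of UMIs from the 4 muscle genes and at least 2 UMIs of the 6 other-cell markers. Thinning drew 1000 UMIs per nucleus with a fixed seed. No doublet caller was run.

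The members and the 30 gene lists were chosen with earlier results of these data known. Genes named between stressed and other cardiomyocyte nuclei were the up to 12 highest and 12 lowest that were at least 2-fold in both infarct libraries, with UMIs in at least 10 nuclei and a level at or above that of non-myocyte nuclei. The rule left out predicted, mitochondrial, ribosomal, haemoglobin, immunoglobulin, Xist, Y-linked and rule genes, and it left 6 lower genes. Between libraries the 8 highest and 8 lowest were named, and up to 4 members a list by UMIs. Other named genes were chosen after their values were seen. Python 3.11.15, numpy 2.4.6, scipy 1.17.1, pandas 2.3.3 and matplotlib 3.10.9 were used, with edgeR 4.0.16 in R 4.3.3 for TMM factors only. The ratio code was tested on simulated counts. RefSeq promoters of 8 of 8 genes sought were matched by symbol on GRCm38.p6, which is the assembly called mm10.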

Additional observations from a re-analysis of the deposited data

How the results depend on the processing

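The order of the shares, MI-NS above MI-DAPA above Sham-NS, held under the alternatives run. The log2 ratio of the MI-NS over the Sham-NS share was 2.86, and 3.44 with at least 3 fetal UMIs and 3.42 after thinning. Of the gene ratios recomputed under an alternative, 4202 of 4640 (90.6%) stayed within their intervals, 437 moved and 1, at least 2-fold before, changed sign. Of the list medians, 1068 of 1145 (93.3%) moved by at most 0.25, 74 moved more and 3, at least 0.25 from 0 before, changed sign.

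Counts of genes past 2-fold depended on the settings. Stressed over other cardiomyocyte nuclei gave 230 genes in MI-DAPA, 142 in MI-NS and 511 in Sham-NS, while a limit of 20 UMIs gave 654, 455 and 1308 and a limit of 200 gave 25, 22 and 30. At least 3 fetal UMIs gave 370 in MI-DAPA and 1197 in Sham-NS, thinning gave 419 and 1357, and a cardiomyocyte share of at least 10% gave 93 in MI-NS. Members with at least 10 fetal UMIs, a choice made after the data were seen, gave 788 in MI-DAPA and 343 in MI-NS. There 29.2% of the MI-NS genes were higher, against 52.8% over all members. Weighting over 5 depth bins made 50.6% of the MI-DAPA genes higher, against 39.6%.

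For MI-NS over Sham-NS, 447 genes were past 2-fold, and 1175 with a limit of 20 UMIs, 81 with 200, 293 with a cardiomyocyte share of at least 10%, 97 after thinning and 173 in members with 2 or 3 fetal UMIs. For MI-DAPA over MI-NS, 178 were, and 702, 10, 112, 29 and 87 under the same settings. Thinning left 14 higher and 15 lower in MI-DAPA.

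The changes of sign were the median of potassium and sodium channel genes in MI-NS (0.01 after thinning), Apex2 in Sham-NS (0.03 after thinning), the immediate early and heat shock median for MI-NS over Sham-NS (-0.18 with at least 3 fetal UMIs) and the mitochondrially encoded median for MI-DAPA over MI-NS (-0.04 with 2 or 3 fetal UMIs). Limits of 20 and 200 UMIs change how many genes are counted by construction, and for the other settings the cause was not tested. No paired analysis was possible because each group has 1 library and the labels give no replicate numbers.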

Other observations

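Nuclei with at least 10 UMIs of the 22 cell cycle genes were 0 stressed, 2 other cardiomyocyte and 17 non-myocyte nuclei in MI-DAPA, 2, 2 and 35 in MI-NS, and 0, 0 and 9 in Sham-NS. Mki67, a marker of cycling cells, had 29 UMIs in stressed nuclei of MI-NS, of which 28 lay in 2 nuclei.

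Cntn2, which marks Purkinje fibres, was packed into few members: 12 UMIs in 3 nuclei of MI-DAPA, 13 in 6 of MI-NS and 13 in 2 of Sham-NS. Other cardiomyocyte nuclei had 15 UMIs in 3 nuclei, 38 in 5 and 51 in 15. Whether these nuclei came from the conduction system was not tested.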
